A study of Mus musculus with 16 samples.

Results

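The 10 genes described here encode the thin filament of heart muscle: the sarcomeric actins Acta1 and Actc1, the tropomyosins Tpm1 and Tpm2, the troponin subunits Tnnt2, Tnni3, Tnnc1 and Tnni1, and the filament-end proteins Lmod2 and Tmod1. They were taken by symbol from a table of 35682 genes, and each symbol matched 1 row. Ventricular myocytes came from 16 adult mice: 8 of the transgenic line B3AR-Tg, whose name refers to the beta-3 adrenergic receptor, and 8 of their wild-type (WT) littermates. Every animal, WT included, had undergone transverse aortic constriction (TAC), a narrowing of the aorta that loads the left ventricle, 9 weeks before collection. No unoperated group was analysed here, so the values compare genotypes under load and not loaded with unloaded hearts. The promoter and species of the transgene, and the age in weeks, sex and strain of the animals, are not given in the sources used here. Myocytes were freed by Langendorff perfusion and kept on plates for an hour, and stranded libraries were made from ribosome-depleted total RNA.

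A thin filament is a polymer of actin with tropomyosin lying along it and a troponin complex bound to each tropomyosin. Calcium binds troponin C (Tnnc1), the inhibitory subunit (Tnni3 in the adult heart, Tnni1 in the fetal heart and slow skeletal muscle) lets go of actin, and tropomyosin, held by troponin T (Tnnt2), moves so that myosin can attach. Actc1 is the main sarcomeric actin of the adult heart, whereas Acta1, the actin of skeletal muscle, is also made by fetal and pressure-loaded ventricles. Lmod2 lets actin filaments lengthen at their pointed ends, and Tmod1 caps those ends.

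Promoter windows of the actins are shown first because Acta1 was lower in B3AR-Tg while no genotype difference was detected in its paralog Actc1. The window of Tnnc1 is added as the other gene that passed the test. The windows run from 250 bases before to 50 bases after the RefSeq gene start on GRCm38.p6, read 5′ to 3′ on the coding strand. They lie at chr8:123894726-123895025 (minus strand) for Acta1, chr2:114052826-114053125 (minus strand) for Actc1 and chr14:31208062-31208361 (plus strand) for Tnnc1. Capitals mark every CArG box (the site of serum response factor), CATTCC (the MCAT element of TEAD factors) and TATAAA, searched on both strands; in Tnnc1 the capitals are CATTCC read from the opposite strand.
Acta1: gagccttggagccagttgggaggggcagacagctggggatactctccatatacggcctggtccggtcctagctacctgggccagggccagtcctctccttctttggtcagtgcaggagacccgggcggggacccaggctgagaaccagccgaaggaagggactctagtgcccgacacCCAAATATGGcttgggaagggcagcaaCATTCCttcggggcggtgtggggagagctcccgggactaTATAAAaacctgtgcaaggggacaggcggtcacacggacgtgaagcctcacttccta
Actc1: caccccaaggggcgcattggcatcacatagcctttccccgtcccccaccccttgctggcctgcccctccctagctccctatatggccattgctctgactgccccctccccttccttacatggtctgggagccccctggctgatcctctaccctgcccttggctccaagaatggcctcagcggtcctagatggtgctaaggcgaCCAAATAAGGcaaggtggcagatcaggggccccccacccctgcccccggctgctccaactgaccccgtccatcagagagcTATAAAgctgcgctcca
Tnnc1: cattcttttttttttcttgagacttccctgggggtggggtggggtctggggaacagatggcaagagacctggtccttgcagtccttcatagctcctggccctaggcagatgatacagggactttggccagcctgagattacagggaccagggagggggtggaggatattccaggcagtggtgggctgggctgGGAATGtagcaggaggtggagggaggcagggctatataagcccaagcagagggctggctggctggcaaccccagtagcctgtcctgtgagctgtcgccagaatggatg

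All 10 genes had a window in this table, in 12 windows because some genes have more than 1 start. A CArG box was found in the windows of 2 of the 10 genes, Acta1 (CCAAATATGG, at −73 to −64 from the start) and Actc1 (CCAAATAAGG, at −47 to −38). Over the 32851 mouse windows of the same length, 1.63% held one. Acta1 alone of the actins had CATTCC, at −46 to −41. That motif was present for 5 of the 10 genes (Acta1, Tmod1, Tnnc1, Tnnt2 and Tpm1) and in 14.7% of all windows. TATAAA occurred in the Acta1 window at −7 to −2, in the Actc1 window at 34 to 39, after the start, and in 13.6% of all windows. The starts used thus lie differently against TATAAA, and positions from the start are not comparable between Acta1 and Actc1. For both actins the RefSeq start also differs from the GENCODE gene bound quoted below, so these positions hold for the RefSeq starts only. The motifs did not overlap one another in these windows, and a match is a description of letters, not of binding.

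Libraries held between 5985335 and 14365864 counts, and the 10 genes together took between 1.87% and 2.66% of them. The preparations carried ventricular myocyte transcripts at high level, with Myh6 between 13971 and 23877 CPM (counts scaled to library size with TMM factors, as throughout) and Myl2 between 4524 and 7422 CPM. No library pair within a genotype agreed within sampling noise, since the chi-square per gene was at least 5.82 over 56 pairs. Mouse Adrb3 had 0 to 4 counts in a library and gives no check of the genotype labels. A floor of 3 counts corresponded to between 0.201 and 0.487 CPM, which covers counting error only.

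Skeletal actin transcripts were lower in B3AR-Tg, while cardiac actin and most of the regulatory proteins were not called. Genotypes were compared by edgeR's quasi-likelihood test, and a gene was called at a Benjamini-Hochberg adjusted p under 0.05 over all 10945 tested genes. Of the 10 members, 9 passed the filter on low counts; Tnni1 did not. Of those 9 members, 2 were called lower (Acta1 and Tnnc1) and 0 higher, against 2.88% lower, 2.03% higher and 4.91% in either direction among all tested genes. The median log2 fold change was −0.15 over the 9 members and 0.01 over all tested genes, and the median absolute log2 fold change was 0.15 in both. For 0 of the 9 did all B3AR-Tg animals lie on one side of all WT animals, a separation seen in 0.247% of tested genes downward and 0.201% upward.

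**Figure D1:**
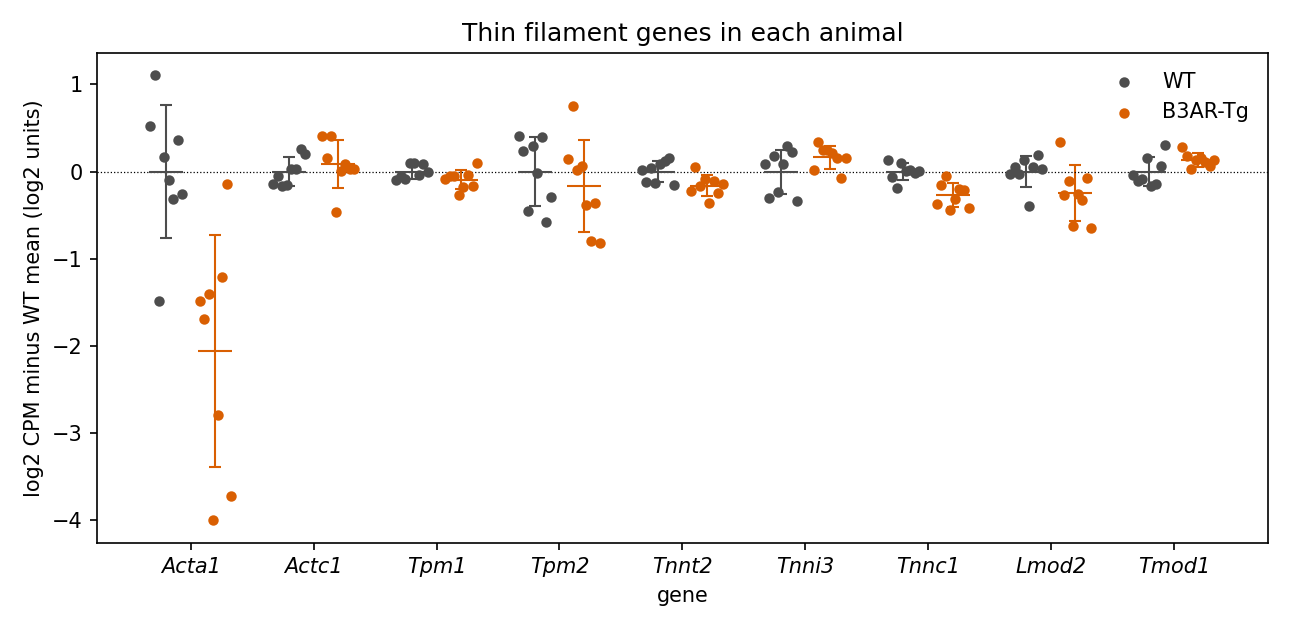
Level of each of the 9 tested thin filament genes in each animal, as log2 CPM minus the WT mean of that gene (y axis, log2 units), for 8 WT (grey) and 8 B3AR-Tg (orange) animals; horizontal marks are means and bars are SD. Acta1 reaches far below the WT mean in B3AR-Tg and spreads widely in both groups, whereas the other genes stay closer to 0, with the widest spread among them in Tpm2.

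Acta1 (ENSMUSG00000031972, chromosome 8, 123891769 to 123894751, minus strand, GENCODE M21 on GRCm38) encodes skeletal alpha-actin. In WT it was at 730 CPM in the lowest animal, 2099 at the median and 4387 in the highest, and in B3AR-Tg at 127, 681 and 1855 CPM. All 8 B3AR-Tg animals were below the WT median and 5 of them below every WT animal, yet the groups overlapped. The overlap came from WT replicate 3 (730 CPM) at the low end and from B3AR-Tg replicate 7 (1855 CPM) at the high end; the next highest B3AR-Tg animal, replicate 6, was at 885 CPM. The log2 fold change was −1.74 (standard error, SE, 0.43), a 3.34-fold lower level (edgeR adjusted p = 0.0245). Means were 2276 ± 1086 in WT and 681 ± 556 CPM in B3AR-Tg (SD, n = 8 each).

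Animals of 1 genotype differed more in Acta1 than in any other tested member, by the SD of log2 CPM. The highest WT animal was 6.01-fold above the lowest, and the highest B3AR-Tg animal 14.6-fold above the lowest. The SD of log2 CPM was 0.76 in WT and 1.33 in B3AR-Tg for Acta1, while for the other tested members it ran from 0.08 (Tpm1) to 0.39 (Tpm2) in WT and from 0.08 (Tmod1) to 0.53 (Tpm2) in B3AR-Tg. Within B3AR-Tg, replicates 4 and 8 held only 127 and 155 CPM, whereas 4 animals lay between 633 and 885 CPM. The call was lost without WT replicate 2, the animal with most Acta1 (log2 fold change −1.53, edgeR adjusted p = 0.0530), and without B3AR-Tg replicate 5 (−1.62, edgeR adjusted p = 0.0562). Without B3AR-Tg replicate 7 the log2 fold change was −2.15.

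Markers of other cells differed with genotype too. Among all 10945 tested genes, 2.88% were called lower and 5350 had a log2 fold change below 0. Of the fibroblast markers, 4 of 6 tested were called lower in B3AR-Tg and all 6 had a log2 fold change below 0 (median −1.50), and the 7 listed summed to 38.2 CPM in the lowest WT animal, 77.7 at the median and 119 in the highest, against 11.04, 24.8 and 46.5 CPM in B3AR-Tg. Endothelial markers had 1 of 6 called lower and all 6 below 0 (median −0.50), with sums from 75.4 to 116 in WT and 36.6 to 137 CPM in B3AR-Tg. No marker of either list was at 0 in every library. With the mean level of both lists as a covariate, which itself differs with genotype, Acta1 was at −1.10 on the log2 scale (edgeR adjusted p = 0.575) and 0 members were called. Whether these cells have a part in the Acta1 result was not tested further. In such bulk libraries fewer cells of a type and less RNA per cell cannot be told apart. Of the 8 ventricular myocyte markers, 7 were above 0 and 1 below 0 (median 0.14). Of these 8, 1 was called higher (Ryr2, log2 fold change 0.46, edgeR adjusted p = 0.0359) and 0 lower. Among all tested genes 2.03% were called higher and 5595 of 10945 were above 0.

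Markers of skeletal muscle were near 0. The 10 listed genes (among them Myh1, Myh2, Myh4, Mylpf and Actn3) summed to between 0.360 and 1.62 CPM in WT and between 0.545 and 1.38 CPM in B3AR-Tg, 0 of them passed the filter, and Myod1 had 0 counts in all animals. Atrial markers (Myl7, Myl4, Sln, Bmp10, Dkk3) summed to between 15.8 and 86.2 CPM in WT and 2.54 and 52.4 CPM in B3AR-Tg. Of 4 tested, 0 were called and all 4 had a log2 fold change below 0 (median −0.57). Markers of mural cells, which wrap vessels and make smooth muscle actin, had 0 of 6 tested called, but 5 were below 0 (median −0.61). The 1 above 0 was Acta2 (0.42). Mural sums were 89.1 to 165 in WT and 48.5 to 143 CPM in B3AR-Tg. Leukocyte markers had 0 of 2 tested called, with both below 0 (median −0.81). Beside these lists, 2.88% of all 10945 tested genes were called lower and 5350 of them were below 0.

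Actc1 (ENSMUSG00000068614, chromosome 2, 114047282 to 114053548, minus strand), the cardiac alpha-actin, was abundant in both genotypes. WT animals ranged from 5500 to 7368 CPM around a median of 6104, and B3AR-Tg animals from 4464 to 8186 CPM around 6434. The ranges overlapped almost wholly, although 7 of 8 B3AR-Tg animals lay above the WT median. The log2 fold change was 0.10 (SE 0.11, edgeR adjusted p = 0.677). The low end was set by B3AR-Tg replicate 4, which also had the least Acta1.

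The ratio of Acta1 to Actc1 counts, taken within an animal and so free of library scaling, fell in B3AR-Tg. In WT the ratio was 0.133 in the lowest animal, 0.329 at the median and 0.740 in the highest; in B3AR-Tg it was 0.0245, 0.0908 and 0.295. Of the 8 B3AR-Tg animals 6 were below every WT animal and all 8 below the WT median. The groups met where B3AR-Tg replicates 6 (0.135) and 7 (0.295) lay among WT replicates 3 (0.133), 8 (0.241) and 6 (0.261). The mean log2 ratio was −1.59 ± 0.76 in WT and −3.73 ± 1.19 in B3AR-Tg (SD, n = 8), a difference of −2.14 or 4.40-fold (exact permutation over 12870 splits, two-sided, p = 0.00109, adjusted over 3 ratios 0.00326). Leaving out each animal in turn gave differences between −2.42 and −1.91, with adjusted p-values between 0.00140 and 0.00653. The 2 transcripts are of similar length (1446 and 1473 bases), and per length the medians were 0.335 and 0.0925.

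Put as a share, Acta1 made up 24.7% of the counts of both sarcomeric actins in the median WT animal and 8.32% in the median B3AR-Tg animal. Single animals ran from 11.7% to 42.5% in WT and from 2.39% to 22.8% in B3AR-Tg. The sum of both actins was between 6230 and 10311 CPM in WT (median 8355) and between 4591 and 8932 CPM in B3AR-Tg (median 7458). Coding sequences of Acta1 and Actc1 were 86.3% identical over 1131 bases, with a longest identical run of 29 bases. How reads matching both genes were assigned is not given in the sources used here, and the split between them is uncertain to that extent.

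**Figure D2:**
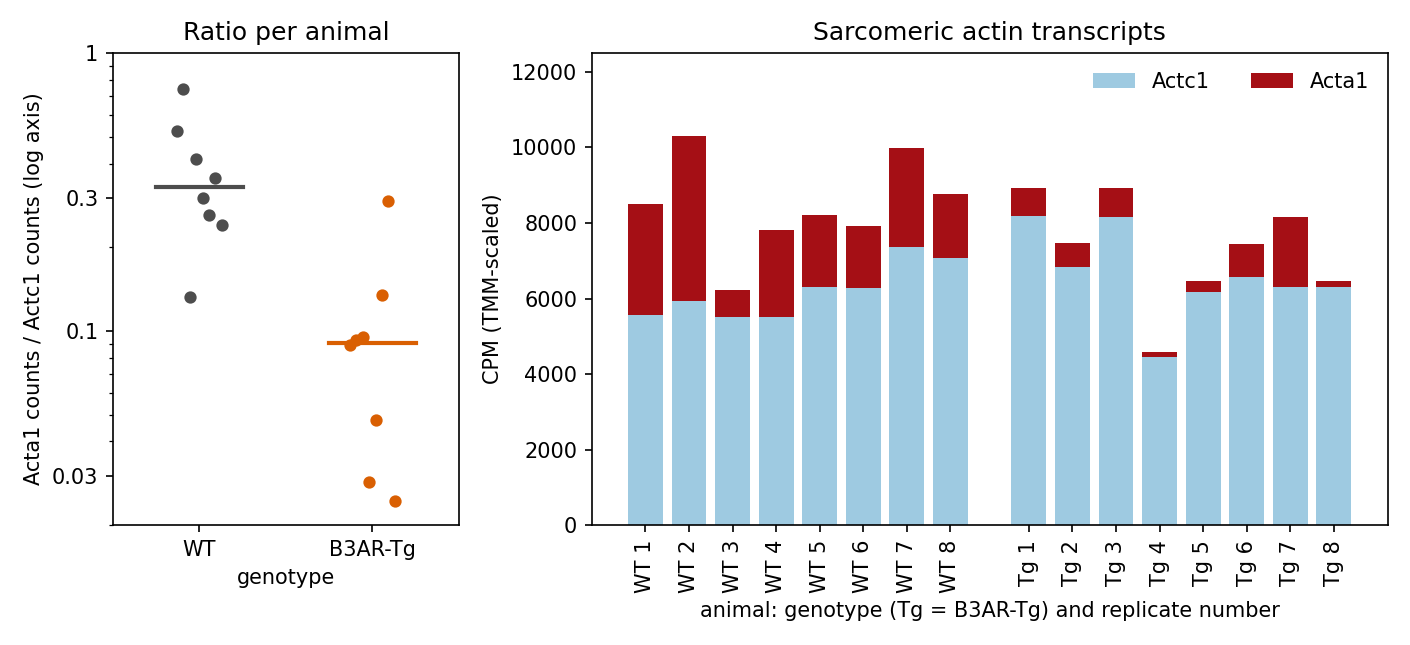
Left, Acta1 to Actc1 count ratio (y axis, log) for each WT and B3AR-Tg animal, with lines at the medians (0.329 and 0.0908). Right, CPM (y axis) of Actc1 (blue) and Acta1 (red) stacked for each of the 16 animals; the red part is between 127 and 1855 CPM in B3AR-Tg (labelled Tg) and between 730 and 4387 CPM in WT.

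Tropomyosins are the rod-like proteins that block or open the myosin sites on actin. Tpm1, the main form in mouse ventricle, was at 6758 to 7744 CPM in WT (median 7118) and 6019 to 7739 CPM in B3AR-Tg (median 6907). Its log2 fold change was −0.09 (SE 0.07, edgeR adjusted p = 0.535), and it varied least among WT animals, 1.15-fold from lowest to highest. Tpm2, the beta form typical of skeletal and fetal muscle, was nearly absent, at 1.17 to 2.52 in WT and 0.963 to 3.27 CPM in B3AR-Tg, on 8 to 37 counts a library. Tpm2 gave a log2 fold change of −0.15 (SE 0.27, edgeR adjusted p = 0.808). The ratio of Tpm2 to Tpm1 counts was 0.000152 to 0.000373 in WT and 0.000124 to 0.000467 in B3AR-Tg, and its log2 value differed by −0.10 (exact permutation p = 0.714, adjusted over 3 ratios 0.804). No difference in Tpm2 was detected.

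Among the troponins, the calcium-binding subunit was lower and the other subunits were not called. Tnnc1 (ENSMUSG00000091898, chromosome 14, 31208312 to 31211729, on the plus strand) was found at 1655 CPM in the lowest WT animal, 1893 at the median and 2055 in the highest, and at 1386, 1570 and 1811 CPM in B3AR-Tg. All 8 B3AR-Tg animals were below the WT median and 6 were below every WT animal, but replicates of both groups met between 1655 and 1811 CPM. It fell by 0.27 on the log2 scale (SE 0.08), or 1.21-fold (edgeR adjusted p = 0.0431). This call sat at the threshold. It was lost on leaving out any 1 of 13 of the 16 animals (edgeR adjusted p from 0.0240 to 0.103 over all 16). It was also lost with scaling to the library total alone (−0.19, edgeR adjusted p = 0.165) and with no low-count filter (−0.25, edgeR adjusted p = 0.146). In all, 17 of 26 alternatives ended the call. The DESeq2 test (adjusted p = 0.00333) and the limma voom test (adjusted p = 0.0104) kept it.

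Troponin T (Tnnt2), which fastens the complex to tropomyosin, was at 1737 to 2142 in WT and 1502 to 2004 CPM in B3AR-Tg, and 7 of 8 B3AR-Tg animals were below the WT median. Its log2 fold change was −0.16 and did not pass (SE 0.08, edgeR adjusted p = 0.258). Cardiac troponin I (Tnni3), the subunit that holds the filament off and is a target of protein kinase A, was at 2601 to 4032 in WT and 3121 to 4163 CPM in B3AR-Tg. Its log2 fold change was 0.15 (SE 0.10, edgeR adjusted p = 0.444). Count ratios of the subunits were also set side by side, chosen after the values were seen and with no test. The proteins assemble in equal number, but these are RNA counts not divided by transcript length. The size of a ratio therefore does not address equal number, and only genotypes are compared. Tnnc1 to Tnni3 was 0.444 to 0.727 in WT (median 0.564) and 0.355 to 0.521 in B3AR-Tg (median 0.420), and Tnnt2 to Tnni3 was 0.518 to 0.668 in WT (median 0.572) and 0.393 to 0.519 in B3AR-Tg (median 0.479). In 7 of 8 B3AR-Tg animals the second ratio was below every WT animal. The high end of both ratios in WT came from replicates 2, 4 and 8 (Tnnc1 to Tnni3 of 0.672, 0.723 and 0.727; Tnnt2 to Tnni3 of 0.663, 0.629 and 0.668), which also had the least Tnni3, 2601 to 2786 CPM. The other 5 WT animals lay at 0.444 to 0.586 and at 0.518 to 0.586. Tnnc1 to Tnnt2, in contrast, overlapped widely, at 0.837 to 1.15 in WT and 0.762 to 1.06 in B3AR-Tg.

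Slow skeletal troponin I (Tnni1), the fetal counterpart of Tnni3, was at the floor. WT libraries held 0 to 4 counts and 6 in all, and B3AR-Tg libraries 0 to 5 counts and 10 in all, against 230203 and 323386 counts of Tnni3. Its ratio to Tnni3 was compared as a linear mean because logarithms of 0 are undefined, and no difference was detected (exact permutation p = 0.804, adjusted over 3 ratios 0.804). At this depth nothing can be said of a difference in Tnni1.

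At the pointed end of the filament, neither the elongation factor nor the cap was called. Lmod2 was at 269 CPM in the lowest WT animal, 364 at the median and 402 in the highest, and at 226, 295 and 448 CPM in B3AR-Tg. In 7 of 8 B3AR-Tg animals Lmod2 was below the WT median, while replicate 1 was above every WT animal. The log2 fold change was −0.22 (SE 0.12, edgeR adjusted p = 0.318). Tmod1 was at 158, 169 and 219 CPM in WT and at 180, 193 and 215 CPM in B3AR-Tg. All 8 B3AR-Tg animals were above the WT median but 0 were above the highest WT animal, and the log2 fold change was 0.13 (SE 0.08, edgeR adjusted p = 0.369). Lmod2 counts per Tmod1 count, a ratio also chosen after the values were seen, were 1.65 to 2.29 in WT and 1.17 to 2.09 in B3AR-Tg, with 5 of 8 B3AR-Tg animals below every WT animal.

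Levels of different genes can be set in order only per transcript length, here as mean CPM per kilobase. In WT the order was Actc1 (4204), Tpm1 (3820), Tnni3 (3654), Tnnc1 (2614), Tnnt2 (1611), Acta1 (1574), Lmod2 (180), Tmod1 (56.3) and Tpm2 (0.913). In B3AR-Tg it was Actc1 (4497), Tnni3 (4056), Tpm1 (3587), Tnnc1 (2169), Tnnt2 (1442), Acta1 (471), Lmod2 (154), Tmod1 (61.5) and Tpm2 (0.828). Neighbours overlapped in range from animal to animal for Actc1, Tpm1 and Tnni3 in both genotypes. Acta1 overlapped Tnnt2 in WT, where it ran from 505 to 3034 CPM per kilobase, above the highest Tnnc1 value (2850). In B3AR-Tg the highest Acta1 animal still lay above the lowest Tnnt2 value (1252). The lowest B3AR-Tg Acta1 value (88.1) lay below the lowest Lmod2 value (114).

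Other isoforms of the same families were counted from a list of 17 genes, of which 11 were tested; 2 were called lower and 0 higher, with a median log2 fold change of −0.08. Among all tested genes 2.88% were called lower and 4.91% in either direction. Tpm4, a tropomyosin of the non-sarcomeric cytoskeleton, fell from 14.8 ± 3.02 to 8.22 ± 2.64 CPM (log2 fold change −0.84, SE 0.18, edgeR adjusted p = 0.0128). Tmod4, a tropomodulin of skeletal muscle, fell from 13.6 ± 2.87 to 9.08 ± 1.83 CPM (−0.57, SE 0.15, edgeR adjusted p = 0.0268), a call lost without B3AR-Tg replicate 5 (edgeR adjusted p = 0.0578). Smooth muscle actin (Acta2), the third close relative of Acta1, was at 39.1 ± 17.7 in WT and 52.3 ± 18.3 CPM in B3AR-Tg (0.42, SE 0.24, edgeR adjusted p = 0.366). Its coding sequence was 85.4% identical to that of Acta1. Tpm3 (−0.25, edgeR adjusted p = 0.333) and the slow skeletal troponin T gene Tnnt1 (0.08, edgeR adjusted p = 0.873) did not pass. The fast skeletal troponin genes Tnnt3, Tnni2 and Tnnc2 reached at most 8, 14 and 2 counts in a library and were not tested.

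**Figure D3:**
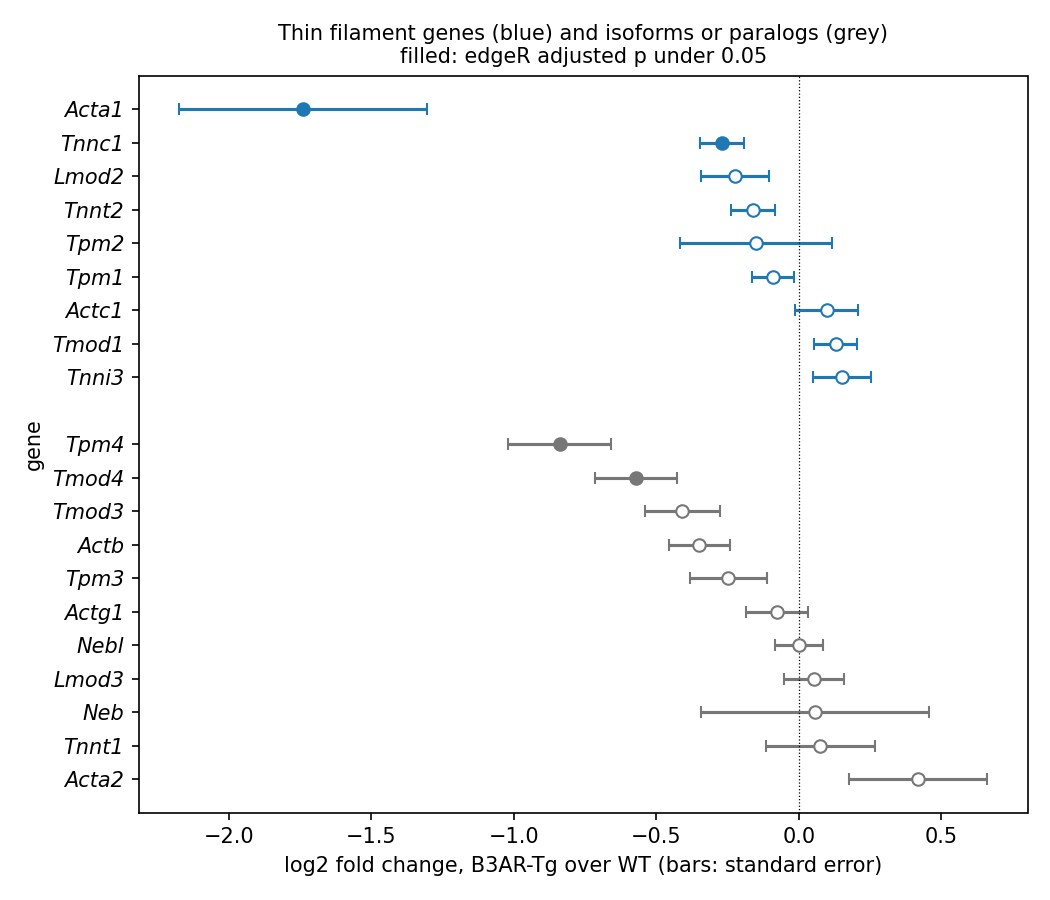
Log2 fold change of B3AR-Tg over WT (x axis, bars are standard errors) for the 9 tested thin filament genes (blue) and 11 tested isoforms or paralogs (grey), with filled points at an edgeR adjusted p under 0.05. Filled points are Acta1 (−1.74), Tnnc1 (−0.27), Tpm4 (−0.84) and Tmod4 (−0.57).

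Proteins that assemble actin or anchor it at the Z-disc were counted from a list of 31 genes, 29 of them tested: 3 were called lower and 1 higher, against 2.88% and 2.03% of all tested genes. Capza1, a subunit of the capping protein of the barbed end, fell by 0.53 on the log2 scale (edgeR adjusted p = 0.00943). Cfl2, the muscle cofilin that severs actin filaments, fell by 0.32 (edgeR adjusted p = 0.0389), and Lrrc10, a cardiac actin-binding protein, fell by 0.41 (edgeR adjusted p = 0.0483). Unc45b, a chaperone of myosin folding, rose by 0.56 (edgeR adjusted p = 0.0464). Of 19 tested regulators of cardiac and actin gene transcription, 1 was called, a share close to the 4.91% of all tested genes; it was Mef2d, which rose by 0.41 (edgeR adjusted p = 0.0378). The last 4 of these calls sat near the threshold: leaving out 1 animal ended the call of Cfl2 for 10 of the 16 animals, of Lrrc10 for 12, of Unc45b for 11 and of Mef2d for 11. With the other-cell marker covariate 3 genes in all were called, and none of these 5 genes nor Tpm4 or Tmod4 was among them (edgeR adjusted p from 0.190 for Mef2d to 0.607 for Tpm4, with 0.232 for Tmod4 and 0.367 for Capza1). Srf, whose product binds CArG boxes, was at 36.4 ± 4.42 in WT and 36.3 ± 8.00 CPM in B3AR-Tg, with a log2 fold change of −0.01 (SE 0.12, edgeR adjusted p = 0.988), whose sign turned with library total scaling (0.07).

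Nppa (log2 fold change −3.99, edgeR adjusted p = 0.00362) and Myh7 (−2.03, edgeR adjusted p = 0.00632), transcripts known to rise with load, were also lower in B3AR-Tg. With the other-cell marker covariate Nppa (−1.96, edgeR adjusted p = 0.492) and Myh7 (−0.92, edgeR adjusted p = 0.608) were no longer called. Myh6 was not called (0.27, edgeR adjusted p = 0.108). It was called by DESeq2 (adjusted p = 0.0291), by limma voom (adjusted p = 0.0480) and with library total scaling (edgeR adjusted p = 0.0482). Because Nppa and Myh7 were lower in the main fit, the actin ratio was set beside Nppa and the Myh7 to Myh6 ratio, animal by animal within each genotype. Nppa, the atrial natriuretic peptide gene, was at 78.4 to 1349 in WT and 5.76 to 120 CPM in B3AR-Tg. The Myh7 to Myh6 count ratio, beta over alpha myosin heavy chain, was 0.0440 to 0.347 in WT and 0.0226 to 0.0583 in B3AR-Tg. WT replicates 2, 4 and 8 stood apart from the other WT animals in Nppa and the myosin ratio, which reached at most 330 CPM and 0.0787 in the other 5. Replicate 2 was highest in the actin ratio too, with 0.740, beside 1240 CPM of Nppa and a myosin ratio of 0.296. Replicate 4 had the highest myosin ratio (0.347), with 1076 CPM of Nppa and an actin ratio of 0.415, the third highest in WT. WT replicate 8 had the most Nppa (1349 CPM) and a myosin ratio of 0.306 but an actin ratio of 0.241, the next lowest in WT. WT replicate 1 had the next highest actin ratio, 0.526, with 330 CPM of Nppa and a myosin ratio of 0.0787. In B3AR-Tg, replicate 7 was highest in all 3 (0.295, 120 CPM and 0.0583).

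Within WT the log2 actin ratio and log2 Nppa had a Pearson r of 0.53 (exact permutation p = 0.178, n = 8) and a Spearman rho of 0.43 (exact permutation p = 0.299), and within B3AR-Tg an r of 0.51 (exact permutation p = 0.181) and a rho of 0.48 (exact permutation p = 0.243). Without the 2 animals farthest from the Nppa median, r was 0.64 in WT and 0.47 in B3AR-Tg. With the log2 myosin ratio, r was 0.34 in WT (rho 0.24, exact permutation p = 0.414 and 0.582) and 0.64 in B3AR-Tg (rho 0.55, exact permutation p = 0.0846 and 0.171), and without the 2 farthest animals of each it was 0.58 in WT (without replicates 4 and 8) and 0.26 in B3AR-Tg (without replicates 1 and 7). Of 24 such relations computed in the family, 0 had an adjusted p under 0.05 and 1 had a raw p under 0.05.

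**Figure D4:**
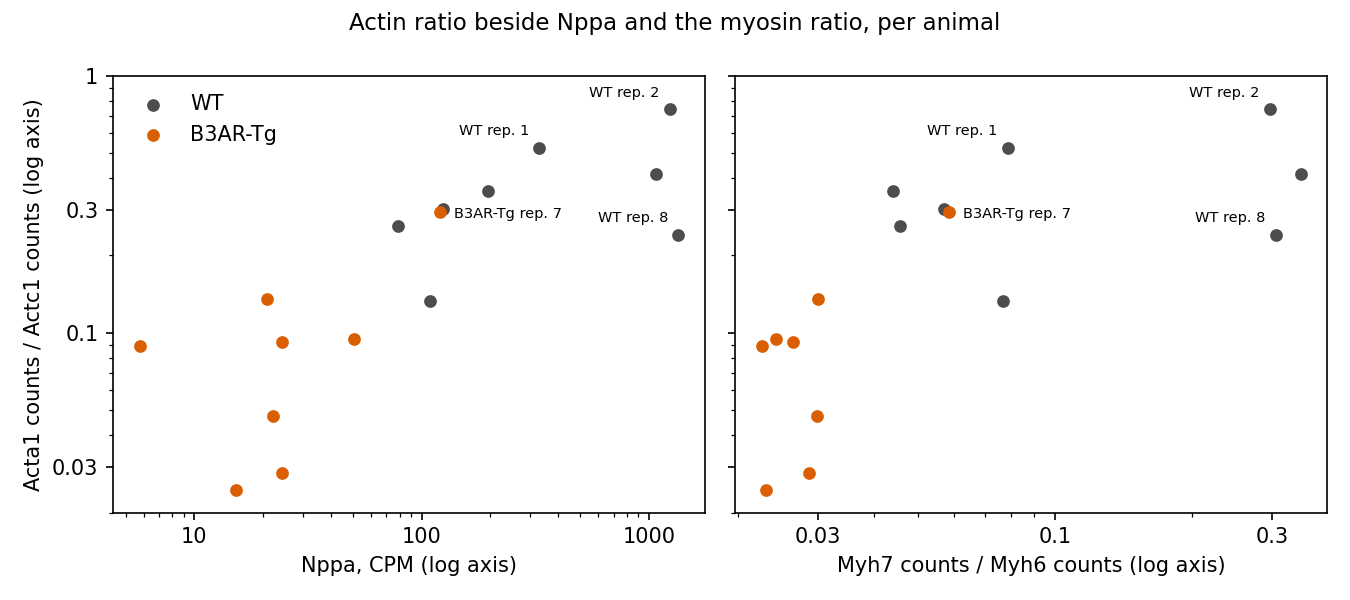
Acta1 to Actc1 count ratio (y axis, log) against Nppa in CPM (left, log x axis) and against the Myh7 to Myh6 count ratio (right, log x axis), 1 point per animal, WT grey and B3AR-Tg orange. WT replicate 8 joins the highest Nppa (1349 CPM) with an actin ratio of 0.241, and B3AR-Tg replicate 7 (0.295) lies among the WT animals.

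Relations of Acta1 with the other members did not pass the adjustment. Over the other 8 tested members, r with log2 Acta1 ran from −0.39 to 0.52 in WT and from −0.49 to 0.71 in B3AR-Tg. With TMM scaling the largest were both in B3AR-Tg: Tnnc1 (r = 0.71, exact permutation p = 0.0550; rho = 0.67, exact permutation p = 0.0831) and Lmod2 (r = 0.71, exact permutation p = 0.0451; rho = 0.62, exact permutation p = 0.115), each with an adjusted p of 0.570 over the 24 relations by the exact permutation test. Without the 2 animals farthest from the median, r was 0.68 for Tnnc1 and 0.85 for Lmod2. For Tnnc1 in WT, r was 0.52 with all animals (exact permutation p = 0.176) and rho was 0.19 (exact permutation p = 0.665). Without replicates 1 and 3, r was −0.56, so it rested on those animals. With library total scaling r for Tnnc1 in WT was 0.88 (adjusted p = 0.102 by the exact permutation test). This was above the 0.66 of both Tnnc1 and Lmod2 in B3AR-Tg under that scaling. In WT that scaling raised r with Acta1 for every other tested member too. Examples are Tpm1 (from 0.15 to 0.59), Actc1 (from 0.12 to 0.42) and Tnnt2 (from −0.24 to 0.29), so the rise was not particular to Tnnc1.

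The 5 genes whose pattern was most like that of Acta1, by Pearson r of log2 CPM over the 16 animals after taking off each genotype's mean, were Mcur1 (r = 0.85), Kmt5a (0.84), Haus8 (0.83), Nras (0.82) and Abcb4 (0.82). They are the top of 10926 genes ranked, and these r values describe the ranking without a test. Only Haus8 of the 5 was called between genotypes, with mean CPM of 13.5 ± 2.88 for WT and 8.09 ± 2.61 for B3AR-Tg (log2 fold change −0.74, edgeR adjusted p = 0.0236). On the same measure Nppa had an r of 0.43, Myh7 of 0.26, Srf of 0.32 and Acta2 of 0.32, ranks 909, 2291, 1747 and 1708.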

How the data were processed

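The authors deposited whole-number counts per gene for 16 libraries, 1 per animal, with no normalization, and each column was matched to its animal by the name in its title. Salmon and GRCm39 are named in the submitters' processing notes without a role; the annotation release, the strand setting and any rounding of estimates are not given in the sources used here. The depth was 5985335 to 14365864 counts a library. From these counts, edgeR 4.0.16 in R 4.3.3 gave TMM factors, CPM, log2 CPM (prior count 2) and quasi-likelihood F tests with genotype alone, after filterByExpr (minimum count 10, minimum total 15). Standard errors are the absolute log2 fold change over the square root of F. Ratios and correlations were tested by exact permutation, two-sided; 0.000155 is the smallest p the 12870 splits can give. Gene positions and transcript lengths come from GENCODE M21 (GRCm38), using the longest APPRIS principal transcript, and promoters from RefSeq (GRCm38.p6), both matched by symbol and gene; the counts carry no coordinates.

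The members and lists were chosen with earlier results of these data known. Named genes are the 10 members, up to 4 called genes a list by p, the fixed names Acta2, Tpm3, Tpm4, Tnnt1, Tnnt3, Srf, Myh6, Myh7 and Nppa, and the 5 genes most like Acta1. Alternatives covered scaling, filter, DESeq2 1.42.0, voom of limma 3.58.1, covariates, a replicate block, thresholds and each animal left out. The linear Tnni1 ratio replaced the planned log2 ratio because of counts of 0. Animals are separate individuals per the labels. The edgeR fit and the permutation code were tested on simulated data.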

Additional observations from a re-analysis of the deposited data

Results flagged for a closer look

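In each group of 8 animals, the highest and the lowest were searched for a gap to the nearest animal above Dixon's critical share of the range, 0.526, over 50 groups; 2 animals were found, and chance gives 2.5. Actc1 was low in B3AR-Tg replicate 4, whose gap took 0.535 of the range on the log2 scale, where the level was 4464 CPM while its 7 group mates held 6176 to 8186 CPM. Lmod2 was low in WT replicate 5, with a gap of 0.631 of the range, where the level was 269 CPM while the remaining WT libraries held 347 to 402 CPM.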

How the results depend on the processing

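The Acta1 to Actc1 ratio kept its direction and its side of the threshold in all 19 alternatives run, including the linear mean ratio (difference −0.271). Of these, 16 left out 1 animal each. Dividing by transcript length and the replicate block cannot change the mean log2 difference. The other-cell marker covariate was not run on the ratio. Acta1 kept both in 23 of 26 alternatives, a different set that included this covariate. Acta1 was at −1.10 with the other-cell marker covariate, where it was no longer called, and between −2.15 and −1.53 with each animal left out. Of the members, 2 were called; 1 was called with library total scaling, 1 with no low-count filter, 0 with the other-cell marker covariate, 0 at an adjusted p under 0.01, and 0 to 2 with each animal left out. Over all genes 537 were called, against 840 with DESeq2, 3 with the other-cell marker covariate, 109 at an adjusted p under 0.01 and 908 under 0.1, and from 272 (without WT replicate 4) to 675 (without WT replicate 3) with an animal left out. The cause of these changes was not tested.

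Same-numbered animals share only a number: over the 8 pairs their deviations correlated between −0.219 and 0.0954. With the replicate block 230 genes and 1 member were called, Acta1 (log2 fold change −2.06, edgeR adjusted p = 0.0358). Tmod4 (edgeR adjusted p = 0.0972), Cfl2, Lrrc10, Unc45b and Mef2d were no longer called by edgeR. For a ratio, the block leaves the mean difference the same by construction, so only the p-value can move. For the actin ratio, with its difference of −2.14, the exact permutation adjusted p was 0.0234. The Tnni1 ratio differed by 5.32e-06 with the block, as without it, and by −9.15e-06 without B3AR-Tg replicate 6; leaving out each animal gave −9.15e-06 to 2.31e-05. The Tpm2 to Tpm1 log2 ratio differed by −0.10 with the block, by 0.0073 without B3AR-Tg replicate 6 and by 0.03003 without replicate 8, and by −0.24 to 0.03003 over all animals left out. The 0.5 count added for the Tnni1 log2 ratio (difference 0.03) was chosen after seeing the data.

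The results whose sign turned were not called. With the other-cell covariate Actc1 was at −0.0645, Tnni3 at −0.11 and Tnnt1 at −0.18; Tnnt1 was also at −0.000196 by voom and −0.0265 without WT replicate 4 (leaving out each animal, −0.0265 to 0.215). Srf was at 0.0661 with library total scaling, 0.0119 with no filter, between −0.0804 and 0.0702 with an animal left out, and, leaving out WT replicates 2, 4 and 8, at 0.00381, 0.00497 and 0.05, or B3AR-Tg replicates 5, 6, 7 and 8, at 0.03, 0.02, 0.01 and 0.07. Without the 2 farthest animals r turned to −0.57 (actin ratio with mural markers, WT), −0.34 (Acta1 with Tpm2, B3AR-Tg), 0.21 (Tnni3, B3AR-Tg) and −0.56 (Tnnc1, WT), and with library total scaling to −0.0401 (Tpm1, B3AR-Tg) and 0.29 (Tnnt2, WT).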
